A study of Mus musculus with 24 samples.

Results

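The 10 genes described here encode transcription factors of blood progenitors: *Spi1*, *Erg*, *Lmo2*, *Lyl1*, *Tal1*, *Gfi1b*, *Hhex*, *Mef2c*, *Bcl11a* and *Nfe2*. They were chosen by name as factors that early thymocytes carry over from the progenitor and lose on the way to the T lineage. Earlier results of these data were known at that choice. Each factor was followed through 1 probe set, the brightest of those that match it alone, and the factors are 10 of 18193 genes that probe sets of the arrays name. All 10 passed the filter on low signals, which 12071 of the 18193 genes passed. The arrays are Affymetrix mouse arrays of sorted thymocytes, each value a MAS5 signal (a linear intensity per probe set, scaled to a trimmed mean of 150 on every array).

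All mice were homozygous for the *Prkdc* Scid allele, so that their thymocytes rarely complete V(D)J recombination. The TLX1 group, *IgHμ-TLX1Tg Prkdc Scid/Scid*, carried in addition a *TLX1* (HOX11) transgene under the *IgHμ* promoter, which is chiefly a B cell promoter. The control group was *Prkdc Scid/Scid* without the transgene. Mice of both groups were aged 6 to 8 weeks by the labels, while the study's methods and supplement also give younger mice. The labels name an outbred ICR background, and by the methods the transgenic parents were on CD1 and the Scid parents were CB17 ICR mice bred onto ICR. There were 4 pools per genotype, each from 2 to 5 mice of 1 sex (female for pools 1 and 4 of the TLX1 group and pools 2 and 4 of the control group). Thymocytes without CD4 and CD8 were sorted from each pool into DN1 (CD44+CD25-), DN2 (CD44+CD25+) and DN3 (CD44-CD25+), and each fraction gave 1 array, 24 in all.

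Early thymocytes enter the thymus with the transcription factors of a multipotent progenitor still active, and Notch signalling adds a T cell programme on top. In the passage from DN2 to DN3 the cells lose the capacity to form myeloid, dendritic and NK cells, and this loss is known as commitment. Several of the factors that are shut off then, *Tal1*, *Lyl1*, *Lmo2* and *Mef2c* among them, are oncogenes of human T cell leukaemia when they stay on, which is why their course in thymocytes with a leukaemia transgene is of interest.

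Array medians were 15.05 to 24.27, 4.37% to 11.3% of probe sets lay under a signal of 1, and replicates correlated at 0.889 to 0.976. *Cd44*, a gate gene, had signals of 892 to 1913 in the DN1, 80.3 to 153 in the DN2 and 9.52 to 29.0 in the DN3 arrays, and *Il2ra*, which encodes CD25, of 488 to 1171, 4270 to 5518 and 4323 to 5541. The mouse *Tlx1* probe set had signals of 4.51 to 11.4 on TLX1 arrays and of 2.75 to 17.3 on control arrays, and since the sources used here do not say that it detects the transgene, it does not check the labels. The DN1 fraction held strong markers of other cells: the NK cell genes *Ncr1* and *Klrd1* had DN1 signals of 1333 to 3883 and 1467 to 4212, and at DN2 of 7.28 to 16.4 and 10.2 to 17.5. On 2 DN1 arrays, control pool 3 and TLX1 pool 2, the mean log2 signal of the T commitment genes was 10.64 and 10.33, against 8.18 to 9.01 on the other 6. These are also the pools that the study's supplement lists with the most cells outside the gates, and results were recomputed without them.

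The sequence just upstream of the transcript start is shown for the 4 factors with the largest fall from DN2 to DN3 among those with an entry in the RefSeq promoter table (GRCm38.p6), 250 bases each, 5′ to 3′ on the strand of the gene. The table held 7 of the 10 factors and not *Spi1*, *Lmo2* and *Nfe2*. For *Tal1*, which has 2 starts in the table, the upstream one is shown. Capitals mark a match to one of the letter strings searched on both strands: AGATAA (bound by GATA factors), AGGAAG (bound by ETS factors such as PU.1), CAGATG and CAGCTG (E-boxes, bound by bHLH dimers) and TGTGGT (bound by RUNX factors). The windows are at chr8:84701207-84701456 (+) for *Lyl1*, chr4:115056176-115056425 (+) for *Tal1*, chr2:28621983-28622232 (-) for *Gfi1b* and chr19:37434591-37434840 (+) for *Hhex*.
Lyl1: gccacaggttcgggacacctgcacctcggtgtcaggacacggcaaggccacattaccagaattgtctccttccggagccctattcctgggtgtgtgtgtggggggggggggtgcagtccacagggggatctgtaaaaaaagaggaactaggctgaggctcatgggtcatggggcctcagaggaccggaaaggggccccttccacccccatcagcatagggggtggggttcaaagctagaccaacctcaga
Tal1: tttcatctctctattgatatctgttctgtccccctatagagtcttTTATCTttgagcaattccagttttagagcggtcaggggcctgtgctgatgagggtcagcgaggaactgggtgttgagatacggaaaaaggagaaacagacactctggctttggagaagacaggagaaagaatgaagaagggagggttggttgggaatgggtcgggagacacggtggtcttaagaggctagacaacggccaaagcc
Gfi1b: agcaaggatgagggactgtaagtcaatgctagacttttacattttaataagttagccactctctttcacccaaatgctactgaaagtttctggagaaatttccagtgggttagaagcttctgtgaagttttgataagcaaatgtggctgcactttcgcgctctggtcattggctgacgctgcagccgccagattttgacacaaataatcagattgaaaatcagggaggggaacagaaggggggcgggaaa
Hhex: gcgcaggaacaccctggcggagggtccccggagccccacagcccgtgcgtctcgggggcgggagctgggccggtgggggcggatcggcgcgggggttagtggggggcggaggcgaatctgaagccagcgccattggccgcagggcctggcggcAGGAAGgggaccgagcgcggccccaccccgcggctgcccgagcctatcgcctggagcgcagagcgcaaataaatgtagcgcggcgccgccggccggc

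*Tal1* held 1 GATA string, on the reverse strand and 205 bases before the start, and *Hhex* held 1 ETS string, 97 bases before the start. The window of the other *Tal1* start held none of the strings. None of the searched strings was in the windows of *Lyl1* and *Gfi1b*, nor in that of *Bcl11a*. Windows not shown held a GATA and an ETS string for *Erg* and an ETS and a CAGATG string for *Mef2c*, while other starts of both held none. Of 32851 mouse promoter windows of this length, 9.99% held the GATA string, 29.5% the ETS string, 14.4% and 13.0% the E-boxes and 14.0% the RUNX string. Matches at these rates describe the windows only.

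Between DN2 and DN3 the progenitor factors fell as a group, while between DN1 and DN2 they did not move one way. From DN2 to DN3, 8 of the 10 fell and none rose at an adjusted p under 0.05 in a limma fit with the pool as a block, against a background of 4.07% of all 27022 kept probe sets that fell and 6.93% that rose. From DN1 to DN2, 6 rose and 2 fell, in a comparison where 28.5% of probe sets rose and 31.2% fell. From DN1 to DN3, 5 fell and 2 rose, where 25.0% fell and 30.1% rose. The median log2 change of the 10 factors was 0.57 from DN1 to DN2, -1.44 from DN2 to DN3 and -0.71 from DN1 to DN3, and that of all kept probe sets was -0.06, 0.08 and 0.04. Of the 8 falls, those of *Lmo2*, *Mef2c* and *Bcl11a* lay near the threshold, and the count was 5 without the filter on low signals, without the pool block, or without control pool 2, TLX1 pool 1 or TLX1 pool 4. In bulk arrays of a sorted fraction, a loss of cells of one type and a loss of RNA per cell cannot be told apart.

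**Figure D1:**
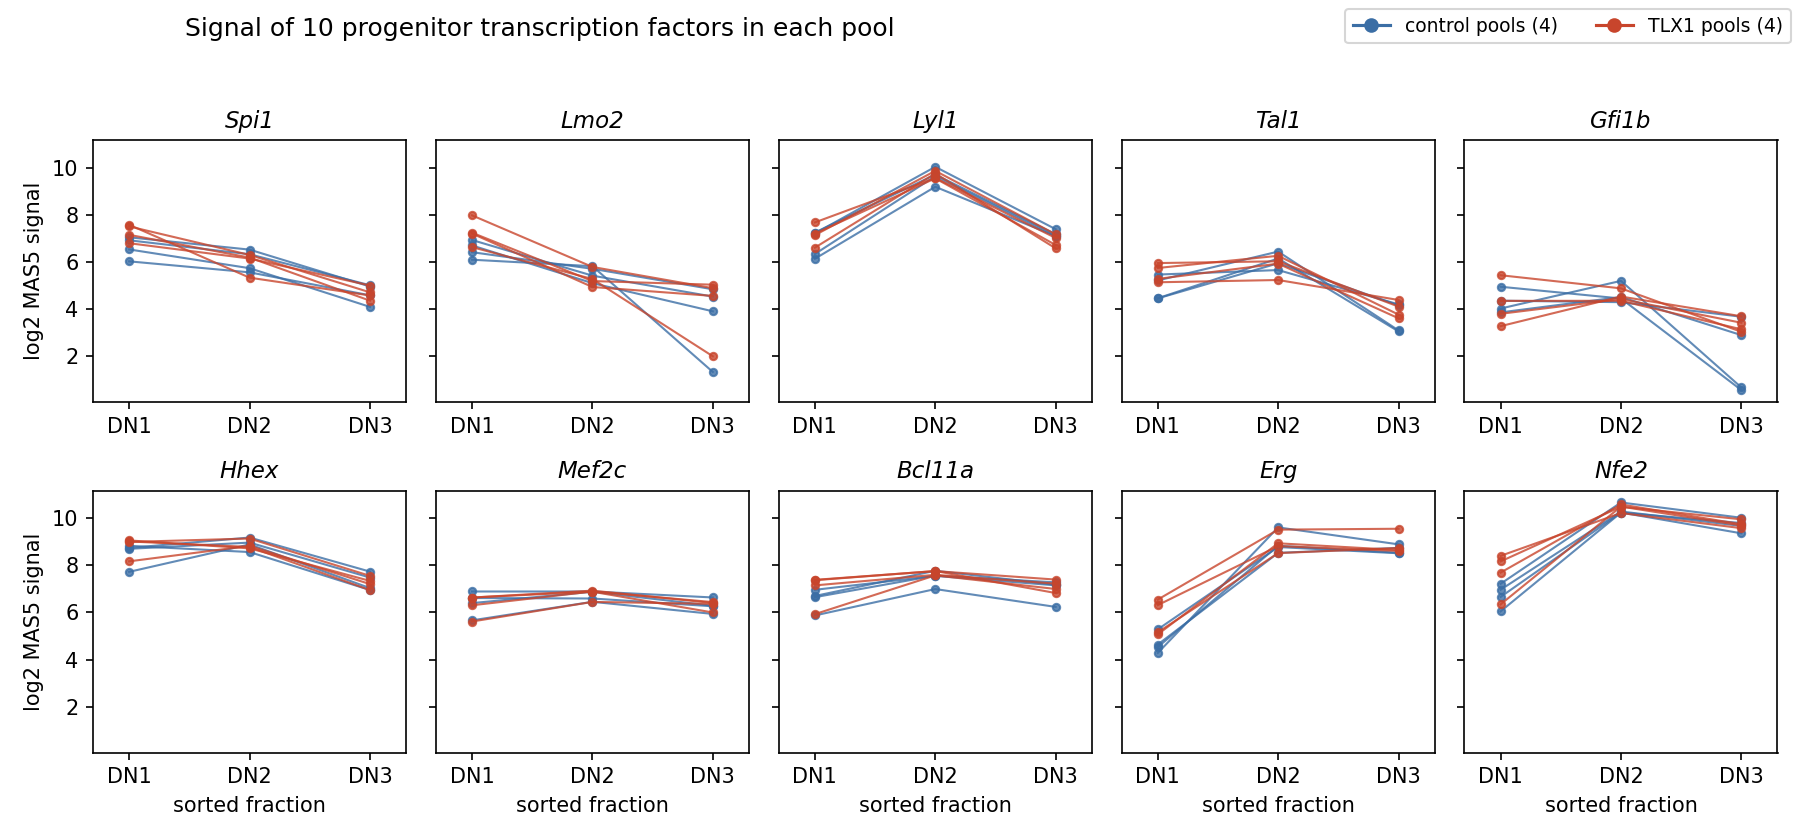
Log2 MAS5 signal (vertical axis) of each of the 10 factors in DN1, DN2 and DN3, with 1 line per pool, blue for the 4 control and red for the 4 TLX1 pools. *Lyl1* peaked at DN2 in all 8 pools, *Spi1* and *Lmo2* fell at each step, and *Erg* and *Nfe2* stayed high at DN3.

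The share of higher calls among all calls moved with the scaling of the arrays. It was 47.7% from DN1 to DN2, 58.7% after quantile normalization and 74% after median centring, and from DN2 to DN3 it was 63%, 45.7% and 18.8%. From DN1 to DN3 it was 54.6%, 59.6% and 70.2%. The median of all probe sets moved from -0.06 to 0.09 and 0.29 in the first of these comparisons, so a log2 change of that size depends on the scale. Of the changes between fractions called for the factors over both genotypes, none turned its sign under either scaling. Signs of the other probe sets were not compared.

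*Spi1* encodes PU.1, an ETS factor that drives myeloid and B cell development. Its signals in control pools 1 to 4 were 132, 121, 92.2 and 64.9 in the DN1, 91.7, 80.0, 53.1 and 47.0 in the DN2, and 31.0, 32.2, 17.0 and 23.9 in the DN3 fraction. In TLX1 pools 1 to 4 they were 142, 181, 111 and 190.4, then 72.5, 78.4, 70.5 and 40.2, then 20.4, 26.1, 31.9 and 23.8. Each pool lost signal at both steps, and no DN3 array reached the lowest DN2 array. The log2 change was -0.93 ± 0.16 (SE, n = 8 pools, adjusted p = 0.000139) from DN1 to DN2 and -1.35 ± 0.16 (adjusted p = 0.000172) from DN2 to DN3. Over both steps it was -2.28 ± 0.16 (adjusted p = 2.26e-08).

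*Lmo2* encodes a LIM domain adaptor that binds no DNA itself and joins bHLH factors to GATA factors. Control pools 1 to 4 had signals of 122, 104, 68.2 and 85.1 in the DN1, 42.6, 34.2, 56.3 and 52.2 in the DN2, and 23.0, 14.9, 2.51 and 28.6 in the DN3 fraction. TLX1 pools 1 to 4 had 147, 98.7, 151 and 251, then 30.5, 38.6, 36.4 and 55.1, then 23.5, 3.98, 32.7 and 29.5. All 8 pools fell at both steps, and the lowest DN3 values were in control pool 3 and TLX1 pool 2, the pools sorted with the most cells off gate. From DN1 to DN2 the log2 change was -1.49 ± 0.39 (adjusted p = 0.00456). The step from DN2 to DN3 was -1.52 ± 0.39 (adjusted p = 0.026), and it was -0.73 (adjusted p = 0.0144) without those 2 pools.

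*Lyl1* and *Tal1* encode bHLH proteins that bind DNA as partners of E proteins, and both can bind LMO2. *Lyl1* signals in control pools 1 to 4 were 148, 151, 80.6 and 70.1 in the DN1, 1047, 833, 795 and 582 in the DN2, and 167, 144, 136 and 136 in the DN3 fraction. In TLX1 pools they were 204, 140.4, 97.2 and 147, then 755, 929.9, 861 and 746, then 129, 144, 95.1 and 105. The DN2 arrays stood above all others, and DN1 and DN3 arrays overlapped. *Lyl1* rose by 2.72 ± 0.13 in log2 (adjusted p = 1.26e-09) into DN2 and fell by 2.63 ± 0.13 (adjusted p = 1.02e-07) out of it. The difference between DN3 and DN1 was 0.09 ± 0.13 (adjusted p = 0.615), so *Lyl1* was not shown to be lower at DN3 than at DN1.

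*Tal1* had signals of 37.0, 44.0, 21.9 and 21.8 in the DN1, 86.6, 50.3, 70.6 and 61.4 in the DN2, and 8.52, 18.3, 8.27 and 17.8 in the DN3 fraction in control pools 1 to 4. TLX1 pools had 53.4, 35.1, 38.8 and 61.8, then 76.5, 37.5, 60.7 and 65.1, then 13.6, 20.9, 12.2 and 17.2. DN3 lay below DN2 without overlap, and DN1 and DN2 overlapped. The log2 change was 0.74 ± 0.23 (adjusted p = 0.0118) from DN1 to DN2, -2.16 ± 0.23 (adjusted p = 8.33e-05) from DN2 to DN3 and -1.42 ± 0.23 (adjusted p = 9.63e-05) over both steps. With an RNA quality index of the arrays (the mean log2 difference of 3′ and 5′ control signals for *Actb* and *Gapdh*) as a covariate, the first step was 0.60 (adjusted p = 0.0814).

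**Figure D2:**
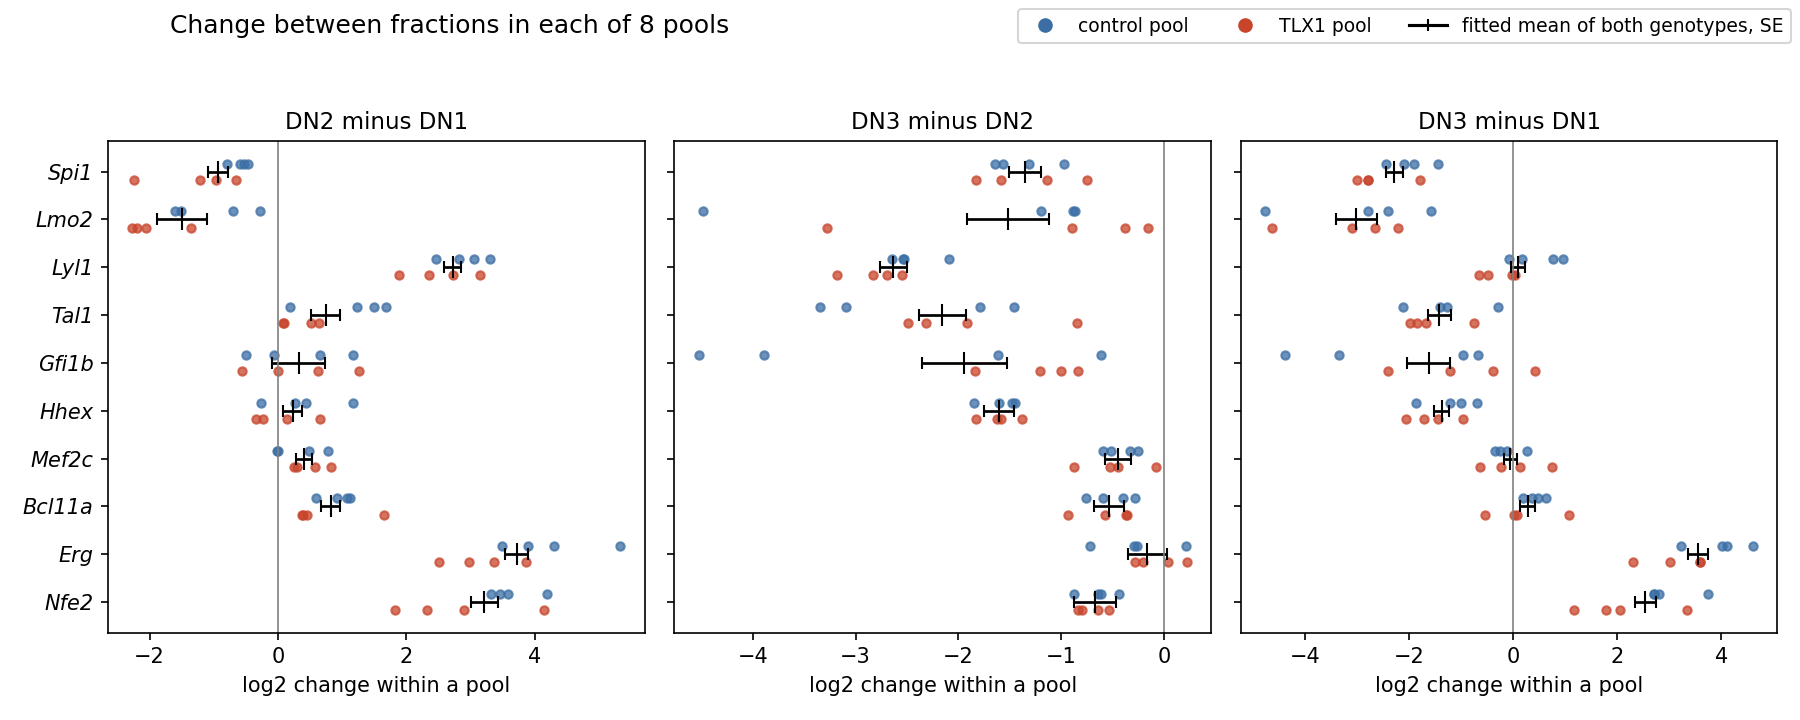
Log2 change between fractions (horizontal axis) of each factor, with 1 point per pool, blue for control and red for TLX1, and a black bar for the fitted mean of both genotypes with its SE. From DN2 to DN3 every pool lies below 0 for 9 factors, and *Erg* has 3 of 8 pools above 0.

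*Gfi1b* and *Hhex* encode repressors, a zinc finger factor of the erythroid and megakaryocyte lineages and a homeodomain factor of blood and liver progenitors. *Gfi1b* was dim, with signals of 9.65 to 43.2 at DN1 and 19.5 to 36.6 at DN2. At DN3 it had 1.47, 12.7, 1.59 and 7.41 in control pools 1 to 4 and 8.80, 10.7, 12.9 and 8.18 in TLX1 pools 1 to 4. All DN3 arrays lay below all DN2 arrays, and control pools 1 and 3 were close to the floor of 1. Its log2 change was 0.32 ± 0.41 (adjusted p = 0.521) from DN1 to DN2 and -1.94 ± 0.41 (adjusted p = 0.00964) from DN2 to DN3. From DN1 to DN3 it was -1.62 ± 0.41 (adjusted p = 0.00388), lower in 7 of 8 pools and with overlap between the arrays of DN1 and DN3, and within TLX1 pools -0.89 ± 0.58 (adjusted p = 0.242). The size depended on the treatment of dim signals. With 32 added to every signal before log2 was taken, the changes from DN2 and from DN1 to DN3 were -0.50 and -0.39.

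*Hhex* signals in control pools 1 to 4 were 416, 454, 211 and 427 in the DN1, 499, 378, 473 and 579 in the DN2, and 179, 124, 131 and 213 in the DN3 fraction. In TLX1 pools they were 532, 288, 516 and 509, then 421, 454, 439 and 563, then 162, 147, 123 and 188. DN1 and DN2 arrays overlapped, and all DN3 arrays lay below all DN2 arrays. The log2 change was 0.23 ± 0.15 (adjusted p = 0.19) from DN1 to DN2, -1.60 ± 0.15 (adjusted p = 2.17e-05) from DN2 to DN3 and -1.37 ± 0.15 (adjusted p = 1.72e-06) from DN1 to DN3. In single pools the DN2 to DN3 change ran from -1.85 to -1.38, a narrower range than for *Lmo2* (-4.49 to -0.15) or *Gfi1b* (-4.52 to -0.62).

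*Mef2c*, a MADS box factor, and *Bcl11a*, a zinc finger factor that lymphoid progenitors need, had small changes. *Mef2c* signals were 49.0 to 118 at DN1, 87.2 to 122 at DN2 and 61.3 to 99.4 at DN3, with overlap between all 3 fractions. Its log2 change was 0.40 ± 0.13 (adjusted p = 0.0132) and then -0.45 ± 0.13 (adjusted p = 0.0346), and between DN1 and DN3 -0.05 ± 0.13 (adjusted p = 0.749). The first of these changes is near the shift that scaling gives to the median of all probe sets at that step, from -0.06 to 0.29. Of 4 other *Mef2c* probe sets, none passed from DN1 to DN2 and 1 passed from DN2 to DN3, at -0.47 ± 0.10 (adjusted p = 0.00935), and that one was also lower at DN3 than at DN1 (-0.35 ± 0.10, adjusted p = 0.00741).

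*Bcl11a* signals were 58.6 to 167 at DN1, 127 to 218 at DN2 and 75.3 to 168 at DN3. It rose by 0.82 ± 0.14 in log2 (adjusted p = 0.000188) into DN2 and fell by 0.54 ± 0.14 (adjusted p = 0.0292) into DN3, and the difference between DN3 and DN1 was 0.28 ± 0.14 (adjusted p = 0.109). It was higher at DN3 than at DN1 in 7 of 8 pools. Its other probe sets did not all follow it. From DN1 to DN2, 3 of 4 rose, by 0.88 to 1.69, and the dimmest fell, by 0.97 ± 0.29 (adjusted p = 0.00954). From DN2 to DN3, 1 of the 4 passed, at -0.71 ± 0.17 (adjusted p = 0.0159), and between DN1 and DN3 2 were higher (0.45 and 1.17) and the dimmest was lower (-0.85 ± 0.29, adjusted p = 0.0221).

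*Erg*, an ETS factor of stem cells, and *Nfe2*, a bZIP factor of megakaryocytes, were both far higher at DN3 than at DN1. *Erg* signals in control pools 1 to 4 were 24.8, 38.9, 23.1 and 19.4 in the DN1, 369, 438, 455 and 781 in the DN2, and 427, 365, 370.0 and 474 in the DN3 fraction. In TLX1 pools they were 79.3, 35.6, 33.5 and 93.3, then 450.1, 366, 489 and 731, then 391, 426, 401 and 750.0. DN2 and DN3 arrays overlapped and all of them stood above all DN1 arrays. The log2 change was 3.72 ± 0.19 (adjusted p = 1.48e-09) into DN2 and -0.16 ± 0.19 (adjusted p = 0.596) into DN3, where 5 of 8 pools were lower.

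*Nfe2* had signals of 148, 125, 101 and 66.0 in the DN1, 1624, 1246, 1209 and 1205 in the DN2, and 1036, 815, 656 and 887 in the DN3 fraction in control pools. TLX1 pools had 287, 206, 81.1 and 338, then 1434, 1533, 1440.3 and 1191, then 989, 856, 827 and 763. DN3 lay between DN1 and DN2 and overlapped neither. It rose by 3.22 ± 0.21 in log2 (adjusted p = 1.4e-08) into DN2. The step into DN3 was -0.68 ± 0.21 and lay at the threshold (adjusted p = 0.0505), lower in 8 of 8 pools, and it passed in 6 alternative settings (adjusted p = 0.0133 to 0.0488). At DN3, *Erg* was higher than at DN1 by 3.55 ± 0.19 (adjusted p = 1.64e-09) and *Nfe2* by 2.54 ± 0.21 (adjusted p = 1.22e-07).

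The factors thus followed 3 courses, and the name of silenced at commitment describes only some of them. *Spi1*, *Tal1*, *Lmo2*, *Gfi1b* and *Hhex* were called lower at DN3 than at both earlier fractions in the fit that takes in both genotypes. For *Gfi1b* and *Hhex* the arrays of DN1 and DN3 overlapped, and for *Lmo2* those of DN2 and DN3. *Gfi1b* was lower at DN3 than at DN1 in 7 of 8 pools. By the brightest probe set of each, *Lyl1*, *Mef2c* and *Bcl11a* were lower at DN3 than at DN2 and were not shown to be lower than at DN1. For *Mef2c* and *Bcl11a*, other probe sets differed between DN1 and DN3, as given above. *Erg* and *Nfe2* were higher at DN3 than at DN1. As a description over 24 arrays that share fractions and pools, the log2 signals of *Erg* and *Nfe2* correlated at r = 0.951, of *Tal1* and *Hhex* at 0.878, of *Mef2c* and *Bcl11a* at 0.821 and of *Spi1* and *Lmo2* at 0.813, while *Spi1* and *Erg* correlated at -0.667.

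The genes most like each factor over the 24 arrays, of 12061 compared, were named by the highest Pearson correlation. For *Spi1* they were *Pla2g7*, *Csf2rb* (a cytokine receptor chain of myeloid cells) and 5031439G07Rik, at 0.928, 0.921 and 0.914. For *Lyl1* they were *Btk* (a kinase of B and myeloid cells), *Cpa3* (a mast cell protease) and *Adgrg3*, at 0.941, 0.923 and 0.914. *Hhex* was nearest to *Napsa* at 0.964, *Arhgap6* at 0.928 and *Ptger3* at 0.927, and *Erg* to *Armcx1* and *Bpifc*, both at 0.974, and *Sytl4* at 0.971. *Nfe2* was nearest to *Pnp* at 0.963 and to *Nqo1* and *Gpr31b*, both at 0.962. *Tal1* was nearest to *Bex6* (0.907), *Rab31* (0.887) and *Emilin2* (0.882), and *Lmo2* to *Plekha8* (0.871), *Clec10a* (0.865) and *Sh3bp2* (0.861). *Mef2c* was nearest to *Bckdhb* (0.832), *Cd48* (0.809) and *Ninj1* (0.807), *Bcl11a* to *Isg20* (0.878), *Tmbim4* (0.849) and *Zfp608* (0.844), and *Gfi1b*, with the lowest values, to *Cx3cr1* and *Igf1* (both 0.776) and *Sash1* (0.755).

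Of 22 partners and upstream factors of the same network 20 were kept, and from DN2 to DN3 1 rose and 2 fell, in a comparison where 6.93% of all probe sets rose and 4.07% fell. *Kit*, the stem cell factor receptor, changed by -1.06 ± 0.15 in log2 (adjusted p = 0.000726) and *Hoxa9*, a homeobox gene of progenitors, by -2.65 ± 0.40 (adjusted p = 0.00116), while *Gata1* rose by 0.79 ± 0.15 (adjusted p = 0.00429). From DN1 to DN2, 11 of the 20 rose and 3 fell. *Etv6* rose by 1.42 ± 0.08 (adjusted p = 4.44e-09) and *Runx1* by 1.69 ± 0.13 (adjusted p = 5.7e-08), and *Irf8*, a factor of dendritic cells and monocytes, fell by 4.67 ± 0.13 (adjusted p = 2.15e-11) and *Lmo4* by 1.79 ± 0.10 (adjusted p = 4.02e-09). The median log2 change of the 20 was 0.02 from DN2 to DN3 and 0.73 from DN1 to DN2.

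At the second step the T commitment genes rose or did not pass the test. Of 12 measured by name, 2 rose from DN2 to DN3, *Lef1* by 1.91 ± 0.26 (adjusted p = 0.000529) and *Ets1* by 0.41 ± 0.06 (adjusted p = 0.00128), and none fell. *Ptcra*, the pre-TCR alpha chain, was at 1.58 ± 0.55 (adjusted p = 0.0783) and *Cd3d* at 0.79 ± 0.29 (adjusted p = 0.0919). From DN1 to DN2, 8 rose, among them *Rag2* by 3.59 ± 0.51 (adjusted p = 3.21e-05), *Notch3* by 2.46 ± 0.34 (adjusted p = 2.5e-05), *Cd3g* by 0.89 ± 0.08 (adjusted p = 2.97e-07) and *Bcl11b*, a factor required for commitment, by 0.87 ± 0.09 (adjusted p = 7.88e-07). The 3 that fell at that step were *Gata3*, *Lef1* and *Ets1*, of which *Gata3* was named after its value was seen.

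**Figure D3:**
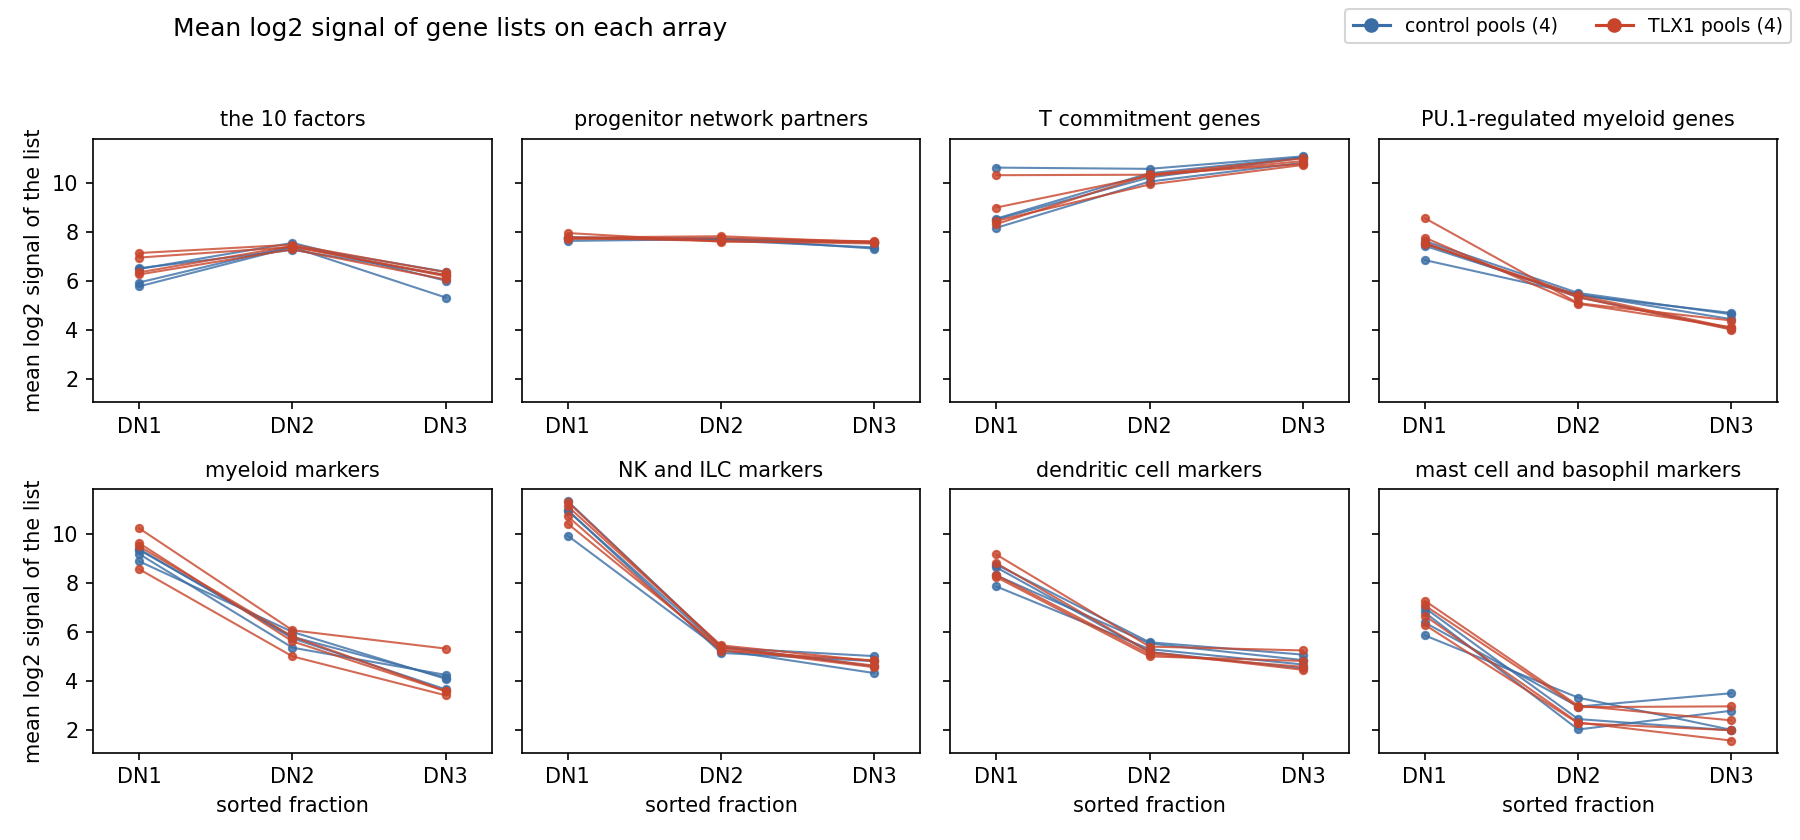
Mean log2 signal (vertical axis) over the genes of 8 lists on each array in DN1, DN2 and DN3, with 1 line per pool, blue for control and red for TLX1. The mean of the 10 factors peaks at DN2 (7.28 to 7.57), while the marker lists of myeloid, NK, dendritic and mast cells fall most from DN1 to DN2.

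Genes that PU.1 is known to activate fell chiefly from DN1 to DN2, while *Spi1* fell at both steps. Of 11 PU.1-regulated myeloid genes kept, 9 fell and 1 rose from DN1 to DN2, and 4 fell from DN2 to DN3. In these comparisons 31.2% and 4.07% of all probe sets fell. The median log2 change of the 11 was -2.17 and then -0.41, and that of *Spi1* was -0.93 and then -1.35. A link between them was not tested. *Cybb*, a subunit of the phagocyte oxidase, fell by 4.90 ± 0.32 (adjusted p = 1.57e-08) and then by 1.86 ± 0.32 (adjusted p = 0.00281). *Csf1r*, the macrophage colony stimulating factor receptor, had signals of 248 to 833 at DN1, 72.6 to 157 at DN2 and 2.17 to 16.9 at DN3, and its second log2 change was -3.52 ± 0.31 (adjusted p = 1.72e-05). *Btk* was the exception and followed *Lyl1*, with a rise of 1.58 ± 0.11 (adjusted p = 2.27e-08) and a fall of 1.95 ± 0.11 (adjusted p = 1.56e-07).

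Markers of other cells moved with the falls from DN1 to DN2, and their part in the results was not tested. All 14 myeloid markers fell into DN2, and 9 of 14 fell again into DN3, where the mean log2 signal of the list went from 8.56 to 10.23 at DN1 through 5.00 to 6.06 at DN2 down to 3.40 to 5.31 at DN3. All 8 NK cell and innate lymphoid markers kept fell into DN2 (*Klrd1* by 7.65 ± 0.23, adjusted p = 3.24e-11), and 2 of the 8 fell further into DN3, at list means of 9.93 to 11.34, 5.14 to 5.45 and 4.31 to 5.01. Of 8 dendritic cell markers 7 fell and 1 rose into DN2, and 3 fell and 1 rose into DN3, with *H2-Aa*, an MHC class II chain, down by 2.88 ± 0.24 (adjusted p = 8.44e-06) at that step. Of 5 mast cell and basophil markers 4 fell and 1 rose into DN2, and 2 fell into DN3. *Cpa3* had signals of 298 to 953, 1216 to 2180 and 270.3 to 581 and was the one that rose, while the mast cell receptor chains *Ms4a2* and *Fcer1a* were at 0.63 to 7.05 and 0.14 to 6.12 at DN2.

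B cell, erythroid and stromal lists were close to the floor or split. Of 6 B cell markers 2 rose and 2 fell from DN1 to DN2, *Vpreb1* by 3.64 ± 0.18 (adjusted p = 1.61e-09) and *Blnk* at -2.53 ± 0.19 (adjusted p = 6.84e-08), and none passed from DN2 to DN3. The defining B cell gene *Cd79a* had signals of 0.75 to 14.7 over all arrays. Of 3 erythroid and megakaryocyte markers kept, 1 fell into DN2, *Epor* at -0.68 ± 0.25 (adjusted p = 0.0311), and none passed into DN3, and the globin gene *Hba-a1* had signals of 0.95 to 12.5. The stromal list had 4 genes kept, of which *Epcam*, which thymocytes may also express, rose by 2.83 ± 0.13 (adjusted p = 8.92e-10), *Krt8* was at -0.83 ± 0.21 (adjusted p = 0.00315), and *Foxn1* was at 0.71 to 18.1 on all arrays.

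Within each genotype the course of the factors was tested separately. From DN2 to DN3, 5 of 10 fell in control pools, *Spi1*, *Lyl1*, *Tal1*, *Gfi1b* and *Hhex*, against 0.788% of all probe sets. In TLX1 pools 4 fell, the same genes without *Gfi1b*, against 1.18%. *Gfi1b* was at -2.66 ± 0.58 (adjusted p = 0.0413) in control pools and at -1.23 ± 0.58 (adjusted p = 0.251) in TLX1 pools, and the difference between these changes was 1.44 ± 0.83 (adjusted p = 1). With any single pool left out the count in control pools was 3 to 4 (3 without control pool 1) and that in TLX1 pools 2 to 4 (2 without TLX1 pool 1). All 10 log2 changes were below 0 in both genotypes.

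Among the questions of the study was what the *TLX1* transgene changes in these fractions before any tumour. No factor differed between TLX1 and control pools at an adjusted p under 0.05 at any stage, where calls made up 0.00370% of probe sets in the DN1, 0.00370% in the DN2 and 0.0185% in the DN3 comparison. At an unadjusted p of at most 0.05 with a fold of at least 1.4, the thresholds that the study used, 2 factors were higher in TLX1 pools at DN1, *Erg* and *Lmo2*, against 0.914% of probe sets. At DN2 and at DN3 there were 0, against 0.925% and 3.33%. TLX1 and control pools overlapped for each of the 10 factors at each of the 3 stages, and the share of all probe sets that overlap was not counted.

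At DN1 most of the factors had a higher mean in TLX1 pools, with wide errors, and all 10 values come from the same 8 arrays. Of all 27022 kept probe sets, 13928 had a difference above 0. *Erg* was higher by 1.09 ± 0.39 in log2 (limma, n = 4 against 4 pools, unadjusted p = 0.0227, adjusted p = 1), carried by TLX1 pools 1 and 4 (79.3 and 93.3 against 19.4 to 38.9 in control pools). *Lmo2* was higher by 0.73 ± 0.31 (limma, unadjusted p = 0.0441, adjusted p = 1). *Nfe2* was at 0.93 ± 0.46, *Tal1* at 0.63 ± 0.30, *Spi1* at 0.63 ± 0.28, *Lyl1* at 0.42 ± 0.33, *Bcl11a* at 0.41 ± 0.38 and *Hhex* at 0.31 ± 0.31, and *Gfi1b* and *Mef2c* were at -0.08 ± 0.46 and -0.09 ± 0.33. Over the alternative settings the *Erg* difference ran from 0.448 to 1.375, and its other probe set was too dim to be kept. The count of 2 was 0 to 4 when single pools were left out, 0 with the replicate number as a block and 4 with the RNA quality index as a covariate. That index was -0.02 to 0.15 in TLX1 and 0.04 to 0.41 in control pools at DN1. With it as a covariate the median difference of the 10 factors was 0.88 in place of 0.53.

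Lists that move with the DN1 fraction overlapped between the genotypes, and their part in the DN1 values was not tested. The mean log2 signal of the myeloid markers at DN1 was 8.56 to 10.23 in TLX1 and 8.88 to 9.38 in control pools, and that of the T commitment genes was 8.33 to 10.33 and 8.18 to 10.64. The PU.1-regulated myeloid genes were at 7.53 to 8.58 and 6.86 to 7.64. *Itgam* (CD11b), a single gene that is in both the myeloid and the PU.1-regulated list, was higher in TLX1 pools at DN1 by 1.54 ± 0.35 (limma, unadjusted p = 0.0018, adjusted p = 1). TLX1 pool 4 had the highest DN1 signals of *Spi1*, *Lmo2*, *Tal1*, *Gfi1b*, *Erg* and *Nfe2* and also the highest mean of the myeloid markers. No gene of any list was called between TLX1 and control pools at any stage.

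**Figure D4:**
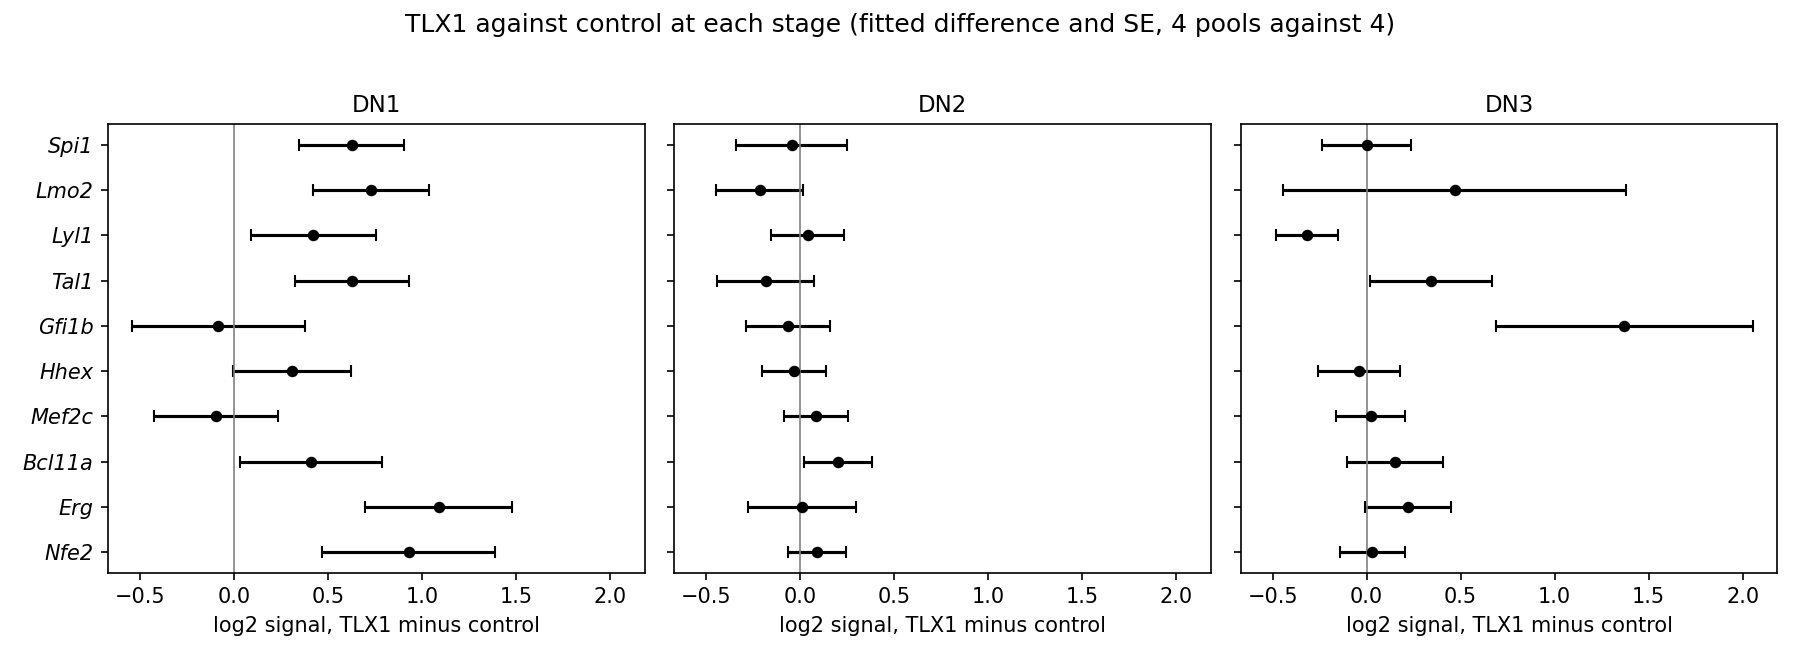
Fitted log2 difference between TLX1 and control pools (horizontal axis, n = 4 against 4) for each factor at DN1, DN2 and DN3, with bars of 1 SE. At DN1 8 of 10 points lie above 0, at DN2 all lie between -0.21 and 0.20, and at DN3 *Gfi1b* lies farthest from 0.

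At DN2 the 10 differences ran from -0.21 to 0.20 in log2 with SEs of 0.15 to 0.29, 5 above and 5 below 0. At DN3 9 of them ran from -0.32 to 0.47, and *Gfi1b* was higher in TLX1 pools by 1.37 ± 0.68 (limma, unadjusted p = 0.0782, adjusted p = 0.875). That value rested on the dim control signals of 1.47 and 1.59 and was 0.17 with 32 added to each signal. The RNA quality index at DN3 was 0.101 to 0.339 in TLX1 and 0.501 to 0.572 in control pools, without overlap, and at DN2 it had means of 0.216 and 0.518 with overlap. Its part in these values was not tested beyond its use as a covariate.

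Whether the stage changes themselves differed between the genotypes was tested as an interaction, and no factor was called at any step, where 0% of the 27022 probe sets were called at each step. At an unadjusted p under 0.05, 972, 781 and 872 probe sets and 2, 0 and 3 of the factors passed for DN1 to DN2, DN2 to DN3 and DN1 to DN3. From DN1 to DN2, *Erg* changed less upward in TLX1 pools by -1.08 ± 0.37 (limma, unadjusted p = 0.0116) and *Spi1* more downward by -0.67 ± 0.31 (limma, unadjusted p = 0.0497). From DN1 to DN3 the interaction was -0.74 ± 0.27 for *Lyl1* (limma, unadjusted p = 0.015), -0.87 ± 0.37 for *Erg* (unadjusted p = 0.0348) and -0.90 ± 0.41 for *Nfe2* (unadjusted p = 0.0473), with an adjusted p = 1 for each. These 5 values share their DN1 arrays with the differences at DN1 given above.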

How the data were processed

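Total RNA of sorted thymocyte fractions was hybridised to 24 one-colour Affymetrix arrays (Mouse 430 2.0). The deposited values are linear signal intensities, which the authors computed with MAS5 in Affymetrix Expression Console and scaled to a 2% trimmed mean of 150. Further background reduction and flags described in the study's methods are not part of these values. The number of arrays limits the precision.

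Signals under 1 were set to 1 and log2 was taken. Of 45037 probe sets without the 64 controls, 34945 match 1 gene, 932 several and 9160 none, by GEO's platform annotation. The brightest 60% by mean over all arrays (27022, mean signal of at least 9.02) were tested. Each gene was followed by its brightest probe set. limma 3.58.1 in R 4.3.3 compared fractions with the pool as a block and TLX1 with control pools at each stage without one, and p-values were adjusted by the Benjamini-Hochberg method over all kept probe sets, with calls at 0.05. Fractions of a pool come from the same mice, and their deviations correlated at 0.177 to 0.626. The pools are taken as replicates, and nothing states that they share no litter. The genes named from lists were those with the smallest p per list and comparison, up to 4, besides gate and marker genes. The factors and lists were chosen with earlier results of these data known. The fits were tested on simulated data. Alternatives were other scalings, filters, offsets, blocks and covariates, probe set summaries and leaving out pools.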

Additional observations from a re-analysis of the deposited data

Results flagged for a closer look

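Of the 60 sets of 4 pools (10 factors, 3 fractions, 2 genotypes), 10 had 1 pool far from the other 3 by Dixon's criterion, which chance gives in about 1 in 20. Control pool 3 and TLX1 pool 2, the pools with the most cells outside the gates, gave 6 of the 10. In TLX1 pool 2 these were *Lmo2* at DN3 with a signal of 3.981 (others 23.5 to 32.7), *Mef2c* at DN2 with 87.22 (others 117.8 to 121.5), *Hhex* at DN1 with 287.6 (others 508.5 to 531.9) and *Bcl11a* at DN1 with 60.85 (others 141.7 to 166.9). In control pool 3 they were *Hhex* at DN1 with 211.2 (others 415.9 to 454.1) and *Bcl11a* at DN3 with 75.31 (others 142 to 155). The part of the sort in these values was not tested.

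The other 4 were in other pools. *Spi1* at DN2 was 40.19 in TLX1 pool 4 (others 70.52 to 78.44), and *Erg* at DN3 was 750 in the same pool (others 390.8 to 426). *Mef2c* at DN3 was 63.89 in TLX1 pool 3 (others 82.39 to 86.73), and *Nfe2* at DN2 was 1624 in control pool 1 (others 1205 to 1246).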

How the results depend on the processing

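The alternatives left the direction of every change between fractions that was called for the factors over both genotypes as it was. The count of 8 factors lower at DN3 than at DN2 was 5 without the filter on low signals and 5 with no replicate block, and leaving out single pools gave 5 to 7. Within control pools the count of 5 was 3 with the brightest 40% and 3 to 4 with single pools left out, and within TLX1 pools the count of 4 was 2 to 4. The count of 5 lower at DN3 than at DN1 was 3 with the brightest 40%, which leaves *Tal1* and *Gfi1b* untested. *Lmo2*, *Mef2c* and *Bcl11a* lost the call from DN2 to DN3 in 6, 8 and 9 settings, with adjusted p (limma) up to 0.0772, 0.18 and 0.196. *Nfe2* at the same step passed in 6 settings (adjusted p from 0.0133), *Hhex* from DN1 to DN2 with median centring (0.57, adjusted p = 0.00535), and *Bcl11a* from DN1 to DN3 with median centring (0.48, adjusted p = 0.0125) and without TLX1 pool 3 (0.40, adjusted p = 0.033). The cause was not tested.

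Between TLX1 and control pools at DN1, the count of 2 factors past the p and fold thresholds was 1 with quantile normalization, 1 without the filter, 1 with the methods' unpaired test, 4 with the RNA quality index as a covariate and 0 to 4 with single pools left out (0 without TLX1 pool 1, TLX1 pool 4 or control pool 4, and 4 without TLX1 pool 2). At DN3 the count of 0 was 1 with quantile normalization, median centring, the index or a random block, and 0 to 1 with single pools left out. With the replicate number as a replicate block the count at DN1 was 0. Neither the labels nor the data pair the pools by number: the deviations of same-numbered pools correlated at -0.345 to 0.482 at DN1, -0.126 to 0.402 at DN2 and -0.0524 to 0.365 at DN3. Each pool numbered 4 had the other as its best match at all 3 stages, a hint from the data and not the design. The highest correlation at DN1 was that of control pool 3 with TLX1 pool 2, at 0.652.

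Among the factors, signs turned only for changes that were not called. The difference between TLX1 and control pools turned in at least 1 of 19 settings for 2 factors at DN1, all 10 at DN2 and 7 at DN3. *Lyl1* between DN3 and DN1 was -0.018 without control pool 3 and TLX1 pool 2. *Mef2c* between DN3 and DN1 was 0.024 with quantile normalization, 0.14 with median centring and -0.18 to 0.054 with single pools left out. At DN1 the difference of *Gfi1b* between TLX1 and control pools was 0.00697 with 32 added to each signal, 0.21 with the index and -0.49 to 0.23 with single pools left out, and that of *Mef2c* was 0.39 with the index and -0.34 to 0.13 with single pools left out. Dim signals limit *Gfi1b* and *Lmo2* at DN3, where the lowest signals were 1.47 and 2.51, above the floor of 1.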
